A study of Mus musculus with 16 samples.

Results

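The ATP-binding cassette (ABC) genes of CT26 cells were followed across 4 stably transfected lines. CT26 is a mouse colon carcinoma line of BALB/c origin, and 4 mRNA samples of each line went onto 1 Affymetrix mouse genome array apiece. Members were all genes whose symbol runs from Abca to Abcg with a number, apart from Abcc1, which the rule leaves out. For every gene, 1 probe set annotated to that symbol and no other was used, the one with the highest average signal. This gave 44 genes of 18193 in all, on 90 probe sets, and 25 of the genes had more than 1 probe set. Control cells carried the empty pU6-m3 vector, shSep15 cells a hairpin against the 15 kDa selenoprotein Sep15 (gene Selenof), shTR1 cells a hairpin against thioredoxin reductase 1 (gene Txnrd1), and shTR1/shSep15 cells both. All 4 lines, controls included, went through the same transfection and hygromycin selection, so no untransfected cells serve as a reference. The study's methods state that several independent clones were examined and that each array had its own mRNA sample, but no source used here ties an array to a clone or a culture, and the p-values measure only the spread between mRNA samples.

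ABC proteins bind and hydrolyse ATP at a pair of nucleotide-binding domains. Most use it to move a substrate across a membrane, either out of the cell or into an organelle, and many of them act on lipids, bile salts, haem precursors or drugs. Some members carry a single membrane domain and work as dimers, among them those of mitochondria, peroxisomes and lysosomes, while the members of subfamilies E and F have no membrane domain and act in translation. In colon carcinoma the family is best known for exporters that lower the level of drugs in the cell.

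The hairpins define the lines, and the stretch of each target mRNA that was placed in the vector is shown for that reason, 5′ to 3′ and as the labels give it.
Sep15 hairpin, 19 bases: acagaagagttccatttaa
TR1 hairpin, 22 bases: atcgctctgacaagcttattag
The shTR1/shSep15 line carries both. Selenof had a log2 signal between 10.78 and 11.57 in the control arrays and between 7.34 and 8.29 in the 8 arrays of the shSep15 and shTR1/shSep15 lines. Txnrd1 lay between 9.45 and 10.39 in control cells and between 7.18 and 7.91 in shTR1/shSep15 cells. In the arrays labelled shTR1 replicates 1 to 4 had 7.85, 10.57, 7.89 and 9.71, which puts number 4 within the control range and number 2 just above it. Results of these arrays are therefore named as those of the arrays labelled shTR1, and those that matter are given again without replicates 2 and 4.

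Other arrays stood apart as well. Control replicate 2 was the lowest of the 4 control arrays in 14 of the 23 ABC genes whose mean lies above the median signal of all probe sets tested (4.53 on the log2 scale), which is 60.9%. Over all 11539 genes above that median the share was 40.5%. Replicate 2 was likewise the lowest most often in shSep15 cells (10 of the 23 ABC genes, 43.5%, and 42.1% of all genes) and in shTR1/shSep15 cells (10 of 23, 43.5%, and 50.3%). Leaving out control replicate 2 moved the difference from control by over 1.5 times, or turned it, in 14 of the 23 genes in shSep15 cells, in 15 in the arrays labelled shTR1 and in 17 in shTR1/shSep15 cells. Leaving out another control array did so in 9 to 13 of them. Such values are given beside the differences described. The 3 comparisons against control use the same 4 control arrays and are not independent of each other. The difference between the 3′ and 5′ probe sets of Actb, a sign of RNA integrity, spanned 0.41 to 0.79 in control cells and 0.38 to 0.56 in the other lines. Among cell type markers, 5 of 9 epithelial genes lay above the median signal, from Krt20 (mean 7.45) and Epcam (5.93) down to Vil1 (3.49) and Cdh1 (2.51), and the mean of the 9 genes lay between 4.10 and 4.28 in the shSep15 arrays and between 4.69 and 5.21 in the control arrays. Mesenchymal genes were above the median in 6 of 7, with Vim (12.85) and Col1a2 (11.50) the brightest of the list. Leukocyte genes were above it in 4 of 6, with Cd68 at 6.40 and Ptprc at 2.76, endothelial genes in 1 of 5 (Kdr, 5.61) and hepatocyte genes in 2 of 5 (Tat, 5.48, and Ttr, 4.96). The array means of these last 3 lists spanned 4.41 to 5.45, 3.72 to 4.30 and 3.93 to 4.25 over all lines. Whether these shifts have a part in the ABC results was not tested. In mRNA from whole cultures, fewer cells of a type and less RNA per cell cannot be told apart.

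Of the 44 ABC genes, 23 lay above the median signal and 21 at or below it. Probe sets differ in how strongly they bind, so signals are compared between lines and not between genes. The 3 highest probe set means over all 16 arrays were 9.79 for Abce1, 9.65 for Abcf1 and 9.13 for Abcb1b, and the 3 lowest were 2.52 for Abca16, 2.80 for Abca8a and 2.87 for Abca14, an order of probe sets and not of mRNA amounts.

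None of the 44 genes passed the test against control in any of the 3 knockdown lines (limma, Benjamini-Hochberg adjusted p under 0.05 over 45037 probe sets). The background was 2.72% of genes called in shSep15 cells, 0.275% in the arrays labelled shTR1 and 0.0385% in shTR1/shSep15 cells. The smallest adjusted p among the members was 0.0735, 0.145 and 0.164 in that order. At an unadjusted p under 0.05, shSep15 cells had 4 members higher and 0 lower, where the shares over all genes were 10.1% and 5.19%. The arrays labelled shTR1 had 6 higher and 2 lower (9.08% and 4.88% over all genes), and shTR1/shSep15 cells 4 higher and 1 lower (6.2% and 2.59%). The methods' ANOVA with no adjustment called 3, 8 and 3 members, beside 14.3%, 12.8% and 7.57% of all genes, and with adjustment 0 in each, beside 1.69%, 0.165% and 0.022%. The paper, which took genes at an ANOVA p under 0.05, counts ATP-binding cassette transport among the significant changes of shTR1 cells. It names no genes for this, so whether they are among these 44 cannot be told. The median log2 difference of the members was −0.05, −0.03 and 0.02, beside −0.02, −0.03 and 0.01 over all genes. As shares of the 44 members, the counts at an unadjusted p were 9.09% and 0% in shSep15 cells, 13.6% and 4.55% in the arrays labelled shTR1 and 9.09% and 2.27% in shTR1/shSep15 cells. The upward share was under that of all genes in shSep15 cells and over it in the other lines, a difference that was not tested.

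In shSep15 cells 3 members (Abcd3, Abcf1 and Abcf3) had every array above the highest control array and 0 had every array below the lowest one, where the shares over all genes were 4.81% and 2.76%. In the arrays labelled shTR1, 2 members lay above (Abca3 and Abcf3) and 1 below (Abcc3), beside 3.28% and 1.43% of all genes. With replicates 2 and 4 left out 5 lay above (Abca3, Abca6, Abcc4, Abcf1 and Abcf3) and 2 below (Abcb8 and Abcc3), beside 7.06% and 3.5% of all genes. In shTR1/shSep15 cells 2 members lay above (Abcd4 and Abcf3) and 0 below, beside 4.31% and 1.35%. A complete separation of 4 arrays from 4 has an exact two-sided permutation p of 0.0286, the smallest that 4 against 4 can give. This p does not apply to the genes listed with replicates 2 and 4 of shTR1 left out.

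**Figure D1:**
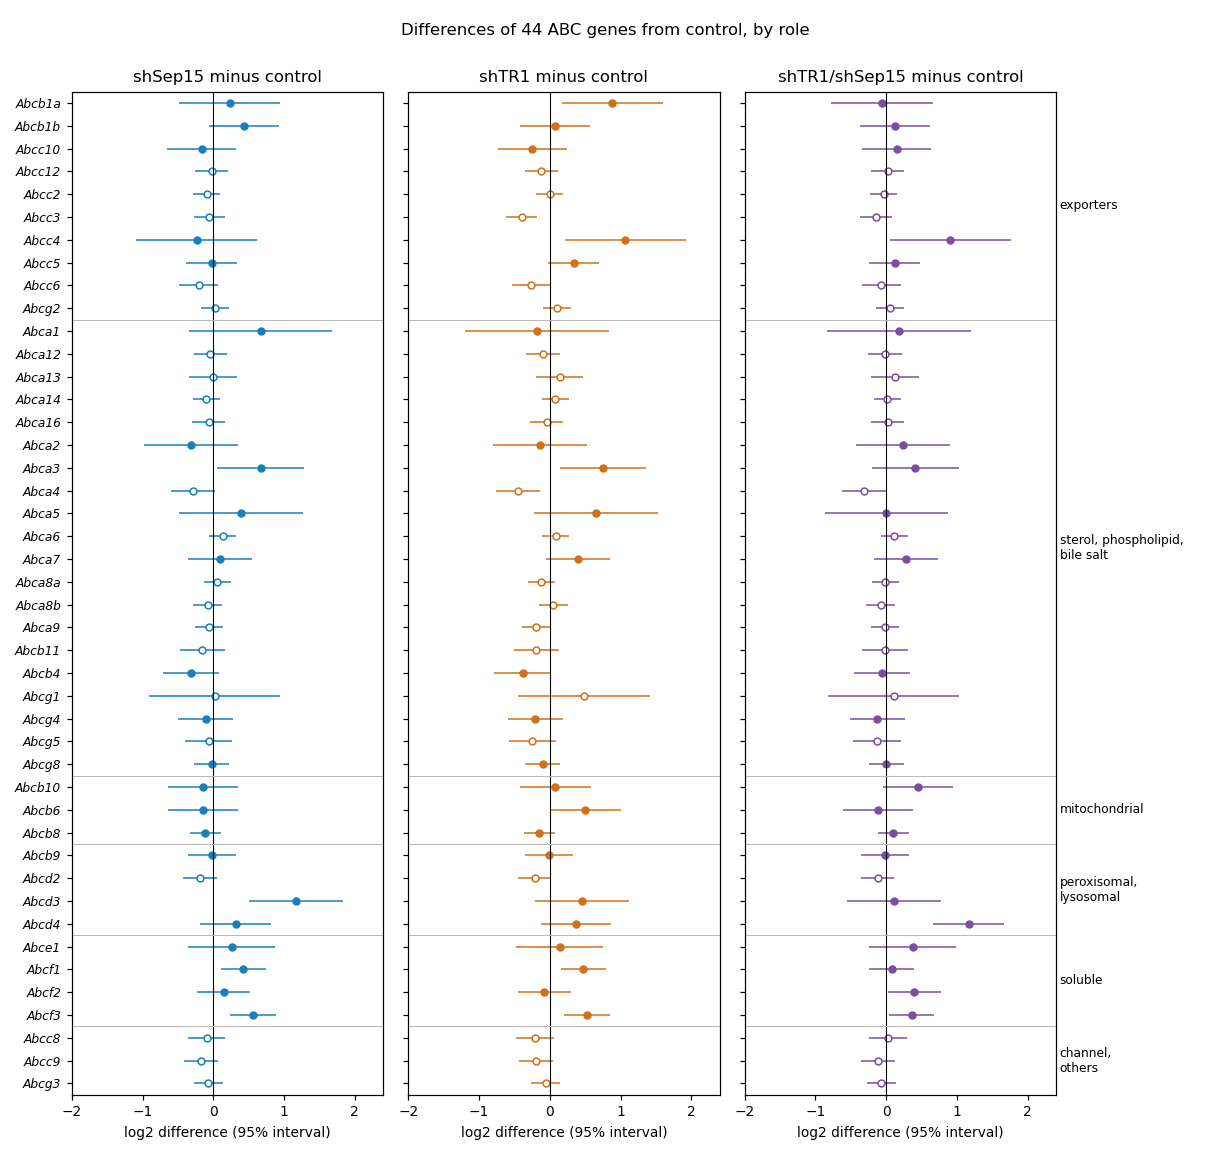
Log2 difference from control of each of the 44 ABC genes (rows, grouped by role) in the shSep15, shTR1 and shTR1/shSep15 lines; bars are 95% intervals from limma, filled points are genes above the median signal and open points those at or below it. Most intervals cross 0, and the differences of Abcd3 in shSep15 cells (1.17), Abcc4 in the arrays labelled shTR1 (1.07) and Abcd4 in shTR1/shSep15 cells (1.16) lie farthest to the right.

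The drug and conjugate exporters pump drugs, glutathione and glucuronide conjugates and cyclic nucleotides out of the cell. In this group of 10 genes, 0 passed the test against control in any line, and the group medians were −0.04 in shSep15 cells, 0.04 in the arrays labelled shTR1 and 0.04 in shTR1/shSep15 cells. Abcc4, an exporter of cyclic nucleotides, prostaglandins and conjugates, had log2 signals of 8.48, 6.17, 8.55 and 7.73 in control replicates 1 to 4. It was at 7.67, 6.95, 7.63 and 7.75 in shSep15 cells, at 9.03, 9.05, 8.61 and 8.52 in the arrays labelled shTR1 and at 8.65, 8.21, 8.74 and 8.97 in shTR1/shSep15 cells. The shSep15 arrays all lay below those of both lines that carry the TR1 hairpin, and the control arrays ran from 6.17, the lowest of all 16, to 8.55, which is above the shSep15 arrays and below all but shTR1 replicate 4 and shTR1/shSep15 replicate 2 among the others. The log2 difference from control was 1.07 (SE 0.40, adjusted p = 0.32 from limma) in the arrays labelled shTR1 and 0.91 (SE 0.40, adjusted p = 0.587) in shTR1/shSep15 cells. In shSep15 cells it was −0.24, and −0.75 (adjusted p = 0.151) without control replicate 2. Without that array the first 2 differences were 0.55 (adjusted p = 0.427) and 0.39 (adjusted p = 1), and the first was 1.09 (adjusted p = 0.742) without replicates 2 and 4 of shTR1. Between shSep15 cells and the arrays labelled shTR1 the difference was −1.30 (SE 0.40, adjusted p = 0.24). It passed when control replicate 2 was left out of the shared variance (−1.30, adjusted p = 0.0119), and without replicates 2 and 4 of shTR1 it was −1.32 (adjusted p = 0.59).

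Abcb1a and Abcb1b together encode mouse P-glycoprotein, the exporter of many hydrophobic drugs. Abcb1a was at 7.24, 6.40, 7.63 and 7.15 in control cells and at 7.83, 8.30, 7.09 and 8.74 in the arrays labelled shTR1. Replicates 2 and 4 of shTR1, those in which Txnrd1 was not low, were the highest of the 16 arrays for Abcb1a. The log2 difference from control of 0.89 (SE 0.33, adjusted p = 0.322 from limma) became 0.36 (adjusted p = 0.869) without them. The other Abcb1a probe set differed by 1.00 (adjusted p = 0.32). It was at 7.42, 6.69, 6.91 and 6.37 in control cells and at 7.52, 8.32, 7.41 and 8.14 in the arrays labelled shTR1, again highest in replicates 2 and 4 of these. In shSep15 cells it differed by 0.69 (adjusted p = 0.499). At the brighter probe set Abcb1a lay between 6.91 and 7.80 in shSep15 cells and between 6.71 and 7.53 in shTR1/shSep15 cells, both overlapping the control arrays. Between the arrays labelled shTR1 and shTR1/shSep15 cells it differed by 0.94 (SE 0.33, adjusted p = 0.325), and by 0.41 (adjusted p = 0.955) without replicates 2 and 4. Abcb1b, the paralog, was at 9.58, 9.16, 9.40 and 9.48 in shSep15 cells and at 9.27, 9.57, 8.29 and 8.77 in control cells, a difference of 0.43 (SE 0.23, adjusted p = 0.492) with overlapping arrays. It was 0.20 (adjusted p = 0.795) without control replicate 3, 0.63 (adjusted p = 0.171) without control replicate 2 and 0.66 (adjusted p = 0.0414) with array weights, the 1 of 26 alternatives in which it passed. The paralogs are close in sequence, and how far their probe sets tell them apart was not tested.

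Abcc3, which exports bile salts and glucuronides, was dim in all lines. Its control arrays were at 3.47, 3.78, 3.65 and 3.60 and the arrays labelled shTR1 at 3.32, 3.03, 3.13 and 3.42, all of them below the lowest control array. The log2 difference was −0.40 (SE 0.10, adjusted p = 0.145 from limma; exact permutation p = 0.0286), and without replicates 2 and 4 it was −0.40 (adjusted p = 0.454). It lay between 3.41 and 3.70 in shSep15 cells and between 3.39 and 3.60 in shTR1/shSep15 cells. Abcc5, an exporter of cyclic nucleotides, was between 6.75 and 7.35 in the arrays labelled shTR1 and between 6.27 and 7.14 in control cells (log2 difference 0.34, SE 0.17, adjusted p = 0.449), and the difference ran from 0.20 without shTR1 replicate 1 to 0.52 without control replicate 3. The 10 Abcc5 probe sets did not share a direction in these arrays. The second brightest differed from control by −0.10 (adjusted p = 0.632), and the dimmer ones by −0.26 to 0.59. Abcg2, the breast cancer resistance protein, had signals from 3.15 to 3.51 over all 16 arrays, and its differences from control were 0.02, 0.11 and 0.05 (adjusted p = 0.952, 0.627 and 0.94).

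**Figure D2:**
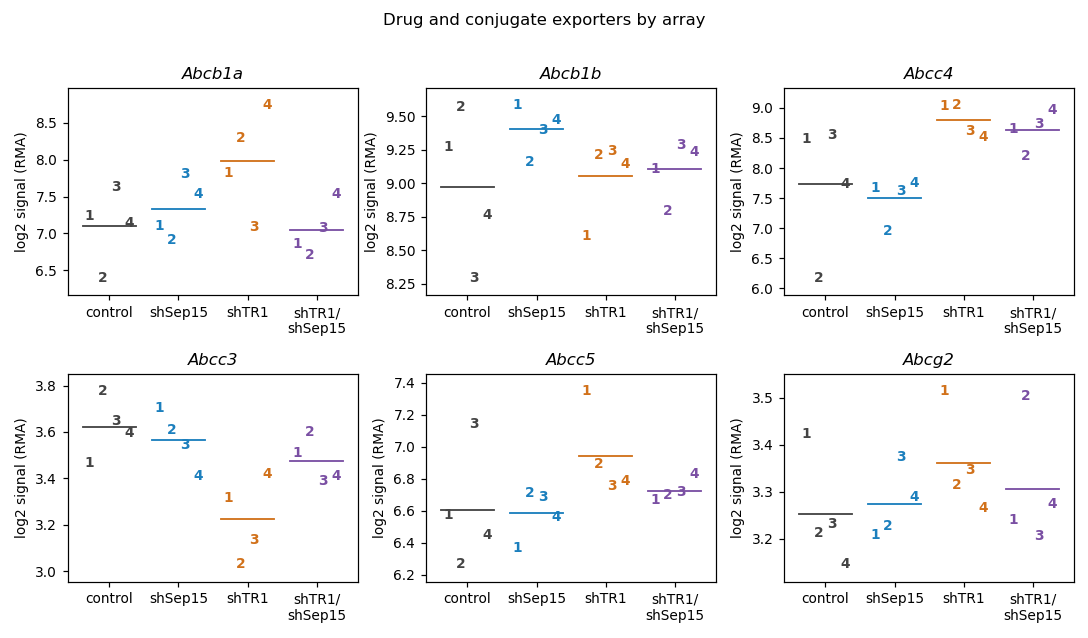
Log2 signal of 6 drug and conjugate exporters in each array; digits are replicate numbers, short lines are line means, and each panel has its own vertical scale. Control replicate 2 is the lowest array for Abcc4 (6.17) and for Abcb1a among the controls (6.40), and shTR1 replicates 2 and 4 are the highest for Abcb1a (8.30 and 8.74).

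The Nrf2 factor, which is activated when thioredoxin reductase is impaired, binds the antioxidant response element, and several exporters are among its known targets. Promoters (250 bases before to 50 after the start of each transcript, RefSeq, GRCm38.p6) were matched by symbol for 35 of the 44 ABC genes. The core of this element, TGACNNNGC on either strand, was found in 5 of the 35 genes, namely Abca8b, Abcb1a, Abcc10, Abcc2 and Abcc4, and in 7 of their 42 promoters (16.7%), beside 12.4% of all 32851 promoters. In the arrays labelled shTR1, Abcc4 and Abcb1a differed from control by 1.07 and 0.89, and Abca8b, Abcc2 and Abcc10 by 0.05, −0.001 and −0.25. The Abcb1a value was 0.36 without replicates 2 and 4, in which Txnrd1 was not low. Abcb1a and Abcc4 are shown because they carry the core and had the widest upward differences among exporters in these arrays. The core is in capitals, with 30 bases on each side as far as the promoter reaches.
Abcb1a, chr5:8567087-8567140, plus strand: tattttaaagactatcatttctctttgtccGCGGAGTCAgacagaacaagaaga
Abcc4, chr14:118706206-118706274, minus strand: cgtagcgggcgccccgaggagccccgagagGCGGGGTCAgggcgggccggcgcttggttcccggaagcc
Abcc4, chr14:118676916-118676984, minus strand: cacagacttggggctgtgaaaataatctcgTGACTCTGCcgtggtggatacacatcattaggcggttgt
The core begins 27 bases after the start site in Abcb1a, and 25 and 23 bases before it in the Abcc4 promoters. A match is a description of the letters and not a bound site. The direct repeat bound by the liver X receptor (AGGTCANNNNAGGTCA) and an interferon-stimulated response element core (GAAANNGAAA) were found in 0 of these 42 promoters, and in 0.0152% and 3.44% of all promoters. Nfe2l2 itself, the gene of Nrf2, differed from control by −0.27, 0.09 and 0.12 (adjusted p = 0.641, 0.865 and 0.933 from limma). The paper found no significant change in Nrf2-regulated genes with the TR1 hairpin alone or with both hairpins. Whether Nrf2 has a part in the exporter values was not tested.

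The sterol, phospholipid and bile salt transporters formed the largest group, with 20 genes, of which 0 passed the test against control. Their medians were −0.05 in shSep15 cells, −0.10 in the arrays labelled shTR1 and 0.00 in shTR1/shSep15 cells. At an unadjusted p under 0.05 from limma, 1 was higher and 0 lower in shSep15 cells (10.1% and 5.19% over all genes). The arrays labelled shTR1 had 1 higher and 1 lower (9.08% and 4.88%), and shTR1/shSep15 cells 0 higher and 1 lower (6.2% and 2.59%). Abca3, which loads phospholipids into lamellar bodies, had control signals of 7.96, 6.44, 7.86 and 7.88. It was at 8.12, 7.69, 8.49 and 8.51 in shSep15 cells and at 8.55, 7.98, 8.35 and 8.28 in the arrays labelled shTR1, which all lay above the control arrays. Its log2 differences from control were 0.67 (SE 0.29, adjusted p = 0.337 from limma) and 0.75 (SE 0.29, adjusted p = 0.326), and without control replicate 2 they were 0.30 (adjusted p = 0.549) and 0.39 (adjusted p = 0.45). A further Abca3 probe set differed by 0.64 and 0.67 (adjusted p = 0.198 and 0.256), or by 0.35 and 0.38 without that array, and the dimmest one by −0.02 and −0.10.

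Abca4, known as a retinoid flippase of photoreceptors, was dim and lower in value in all 3 lines. Control arrays were at 4.35, 4.57, 5.01 and 4.76, the arrays labelled shTR1 at 4.36, 4.18, 4.17 and 4.19, and the ranges overlapped because control replicate 1 lay just below shTR1 replicate 1. The log2 difference was −0.45 (SE 0.14, adjusted p = 0.24 from limma) there, or −0.41 (adjusted p = 0.725) without replicates 2 and 4, −0.28 (adjusted p = 0.455) in shSep15 cells and −0.31 (adjusted p = 0.606) in shTR1/shSep15 cells. The last 2 were −0.17 and −0.20 without control replicate 3. Abca1, which passes cholesterol to apolipoprotein A-I, ranged from 6.78 to 8.93 in control cells, from 8.07 to 9.39 in shSep15 cells, from 6.63 to 8.64 in the arrays labelled shTR1 and from 7.94 to 8.50 in shTR1/shSep15 cells. The differences from control of 0.67, −0.18 and 0.18 had 95% intervals of −0.35 to 1.68, −1.20 to 0.83 and −0.84 to 1.19, which all hold 0. Without control replicate 2 they were 0.24, −0.61 and −0.25, so that the value of shTR1/shSep15 cells turned, and the shTR1 value turned to 0.11 without control replicate 1 and to 0.24 without shTR1 replicate 3. Abcg1, its partner in sterol efflux to high-density lipoprotein, was at 6.62 in shTR1 replicate 1 and between 3.90 and 4.47 in the other 15 arrays. At the dimmer Abcg1 probe set shTR1 replicate 1 was at 3.93, within the range of the other arrays.

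**Figure D3:**
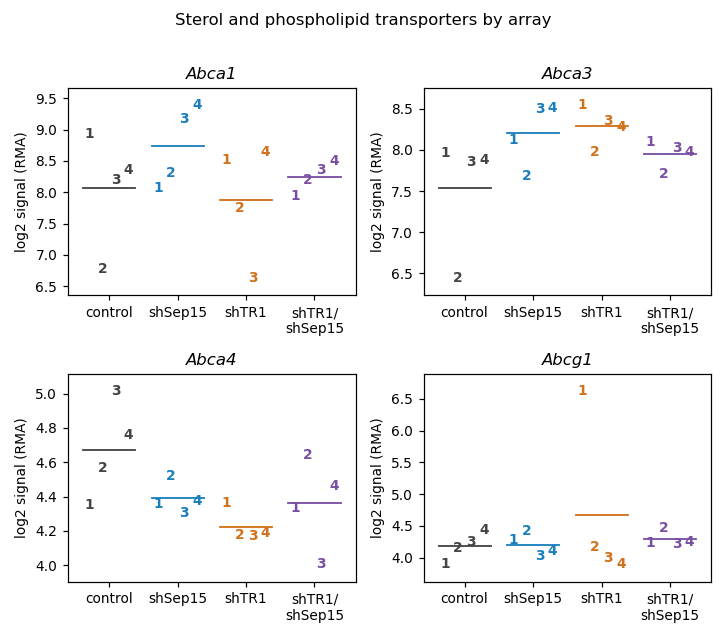
Log2 signal of 4 sterol and phospholipid transporters in each array; digits are replicate numbers, short lines are line means, and each panel has its own vertical scale. Control replicate 2 lies below the other controls for Abca1 (6.78) and Abca3 (6.44), and shTR1 replicate 1 stands alone for Abcg1 (6.62) at the probe set shown, the brighter one.

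The mitochondrial transporters serve haem synthesis and the balance of reactive oxygen. The group comprised Abcb6, Abcb8 and Abcb10. None of the 3 passed the test against control. Abcb10, which is needed for haem synthesis in red cell precursors, lay between 7.34 and 7.59 in shTR1/shSep15 cells and at 7.41, 6.33, 6.75 and 7.45 in control cells. That is a log2 difference of 0.45 (SE 0.23, adjusted p = 0.668 from limma), or 0.23 (adjusted p = 1) without control replicate 2. The dimmer Abcb10 probe sets differed by 0.04 and −0.15. Among 9 measured genes of iron-sulfur cluster and haem synthesis, 0 passed against control. Ppox, the protoporphyrinogen oxidase, was lower in shSep15 cells than in shTR1/shSep15 cells by a log2 difference of −0.73 (adjusted p = 0.00717) and than in the arrays labelled shTR1 by −0.61 (adjusted p = 0.0476).

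The peroxisomal and lysosomal transporters held the widest of the 44 differences from control in shSep15 cells (Abcd3) and in shTR1/shSep15 cells (Abcd4), while in the arrays labelled shTR1 they reached 0.46, under Abcc4. Abcd3, also known as PMP70, brings branched and long-chain acyl-CoA into peroxisomes. Its log2 signals were 8.92, 7.35, 8.53 and 8.64 in control cells and 9.50, 9.53, 9.54 and 9.56 in shSep15 cells. All 4 shSep15 arrays lay above every array of the other lines, and they spread by an SD of 0.03 where the controls spread by 0.70. The arrays labelled shTR1 were at 8.08, 8.88, 8.83 and 9.48, and shTR1/shSep15 cells at 8.48, 8.08, 8.60 and 8.73. The difference of shSep15 from control was 1.17 (SE 0.31, 2.25-fold), with an adjusted p of 0.0735 from limma and an exact permutation p of 0.0286. Without control replicate 2, the lowest of all 16 arrays, it was 0.83 (adjusted p = 0.0994). It passed when control replicate 1 (1.36, adjusted p = 0.0421) or shTR1 replicate 1 (1.17, adjusted p = 0.0403) was left out. Against shTR1/shSep15 cells shSep15 cells differed by 1.06 (SE 0.31, adjusted p = 0.0926), and by 1.06 (adjusted p = 0.0148) with control replicate 2 left out of the shared variance. With the replicate number as a block in a fit of these 8 arrays only, added after seeing the data, it was 1.06 (SE 0.12, adjusted p = 0.00271). That fit called 16.3% of all genes, beside 3.5% in the fit of all 16 arrays, and no label supports the block. The effect of both hairpins minus the sum of the single effects was −1.52 (SE 0.44, adjusted p = 0.0825). The dimmer Abcd3 probe set (mean 3.41) differed from control by 0.12 (adjusted p = 0.747 from limma) in shSep15 cells.

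Genes beside Abcd3 on chromosome 3 were looked at after the value of Abcd3 was seen, in the gene order of RefSeq (GRCm38.p6). Of the 20 measured genes, 10 on each side, 13 had a higher and 7 a lower mean in shSep15 than in control cells, with a median log2 difference of 0.31. Of these, 4 passed the test (20%, beside 1.86% of all genes called higher), namely Rwdd3 (1.80, adjusted p = 0.000226 from limma), Cnn3 (0.99, adjusted p = 0.0175), Dnttip2 (1.64, adjusted p = 0.00343) and Bcar3 (1.40, adjusted p = 0.000926). The median difference of the 20 genes was 0.01 in the arrays labelled shTR1 and 0.04 in shTR1/shSep15 cells. Over all 913 chromosome 3 genes, 564 were higher in shSep15 cells, 113 were called higher (12.4%), and the median difference was 0.09, beside −0.02 over all genes. Among genes above the median signal of the shTR1 and shTR1/shSep15 arrays, which this difference does not use, 9 of 9 neighbours were higher (median 1.17, 3 called). By the same filter 420 of 555 chromosome 3 genes were higher (median 0.47, 19.8% called), beside 6116 of 11530 over all chromosomes (median 0.02, 2.73% called). What part this has in the difference of Abcd3 was not tested. Abca4, the other ABC gene on this chromosome and a neighbour of Abcd3, was at or below the median signal and differed by −0.28. Of 10 measured genes of peroxisome biogenesis and beta-oxidation, 0 passed against control in any line. Pex14 (0.52, adjusted p = 0.254), Scp2 (0.51, adjusted p = 0.309) and Pex19 (0.47, adjusted p = 0.323) had the smallest p-values of that list in shSep15 cells.

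Abcd4, which takes part in the release of vitamin B12 from lysosomes, had log2 signals of 6.58, 6.11, 6.28 and 6.68 in control cells and 7.40, 7.62, 7.48 and 7.79 in shTR1/shSep15 cells. In shSep15 cells it was at 6.64, 6.61, 6.73 and 6.93, and the arrays labelled shTR1 were at 7.61, 6.89, 6.27 and 6.36. The shTR1/shSep15 arrays lay above all control and all shSep15 arrays and overlapped shTR1 replicate 1 only. The difference from control was 1.16 (SE 0.23, 2.24-fold, adjusted p = 0.164 from limma; exact permutation p = 0.0286). With shTR1 replicate 1 left out of the shared variance the same difference of 1.16 had an adjusted p of 0.0136. Against shSep15 cells it was higher by 0.85 (a difference of −0.85 as shSep15 minus shTR1/shSep15, SE 0.23, adjusted p = 0.073). That passed without control replicate 2 (adjusted p = 0.0495) or shTR1 replicate 1 (adjusted p = 0.00943). It also passed with the replicate number as a block in a fit of the 8 arrays of both lines, added after seeing the data (SE 0.09, adjusted p = 0.00208). This is the fit that called 16.3% of all genes, beside 3.5% in the fit of all 16 arrays. The arrays labelled shTR1 differed from shTR1/shSep15 cells by −0.79 (SE 0.23, adjusted p = 0.229), by −1.07 (adjusted p = 0.0182) without shTR1 replicate 1 and by −0.63 (adjusted p = 0.762) without replicates 2 and 4. The dimmer Abcd4 probe set differed from control by 0.20 (adjusted p = 0.898) in shTR1/shSep15 cells.

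**Figure D4:**
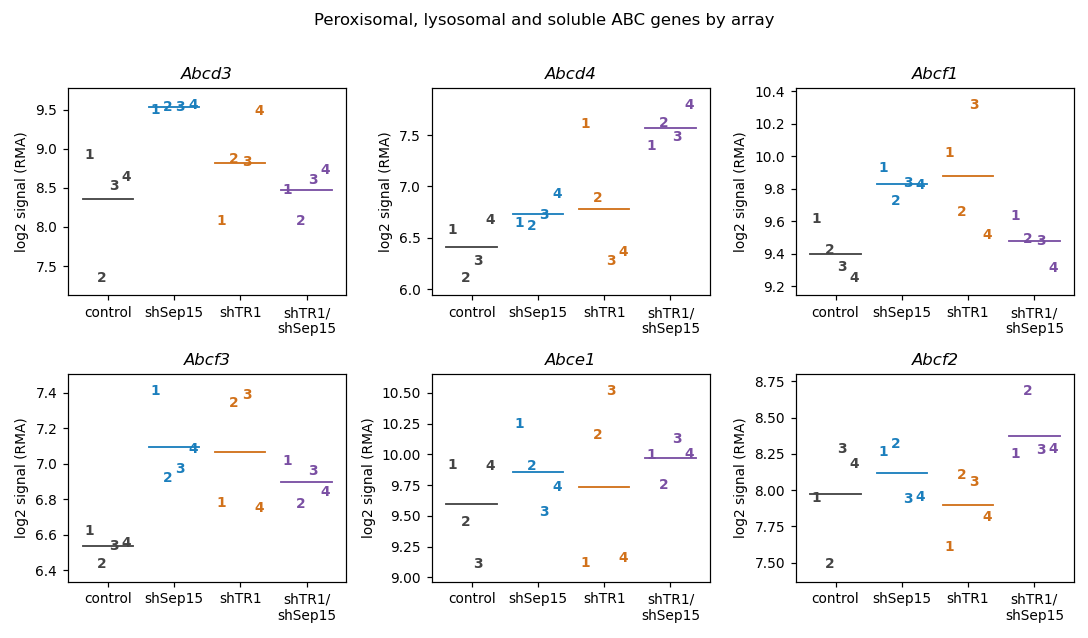
Log2 signal of Abcd3, Abcd4 and the 4 soluble ABC genes in each array; digits are replicate numbers, short lines are line means, and each panel has its own vertical scale. The 4 shSep15 arrays sit together near 9.53 for Abcd3, and the 4 shTR1/shSep15 arrays lie between 7.40 and 7.79 for Abcd4.

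The soluble proteins have no membrane domain. Abce1 splits ribosomes after termination, Abcf1 takes part in translation initiation, and Abcf2 and Abcf3 belong to the same subfamily. At the probe set used for each gene, all 4 were higher in value in shSep15 and in shTR1/shSep15 cells than in control cells. Their medians were 0.34 and 0.37, and 3 of 4 were higher in the arrays labelled shTR1 (median 0.31), beside −0.02, 0.01 and −0.03 over all genes. Other probe sets of these genes did not all share the direction. None passed against control, and the shSep15 value of Abcf2 (0.15) was −0.02 without control replicate 2. Abcf3 was at 6.62, 6.43, 6.54 and 6.55 in control cells, at 7.41, 6.92, 6.97 and 7.09 in shSep15 cells, at 6.78, 7.34, 7.39 and 6.75 in the arrays labelled shTR1, and at 7.02, 6.77, 6.96 and 6.84 in shTR1/shSep15 cells. Every array of the 3 knockdown lines lay above every control array. The log2 differences were 0.56 (SE 0.15, adjusted p = 0.0789 from limma), 0.53 (SE 0.15, adjusted p = 0.182) and 0.36 (SE 0.15, adjusted p = 0.565), each with an exact permutation p of 0.0286. Without control replicate 2 they were 0.53, 0.50 and 0.33 (adjusted p = 0.129, 0.256 and 0.949). Without replicates 2 and 4 the shTR1 value was 0.55 (adjusted p = 0.474). The second Abcf3 probe set differed by 0.36, 0.38 and 0.04.

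Abcf1 was the 1 member that passed any of the 7 comparisons in the fit of all 16 arrays, at its brightest probe set. Its effect of both hairpins minus the sum of the single effects was −0.82 on the log2 scale (SE 0.21, adjusted p = 0.0493 from limma), where 3.8% of all genes were called. Control arrays were at 9.61, 9.42, 9.32 and 9.25, shSep15 arrays at 9.93, 9.72, 9.83 and 9.82, the arrays labelled shTR1 at 10.02, 9.66, 10.31 and 9.52, and shTR1/shSep15 arrays at 9.63, 9.49, 9.48 and 9.31. The shSep15 arrays lay above the control arrays and above the shTR1/shSep15 arrays, and the latter overlapped the controls. The single differences from control were 0.43 (SE 0.15, adjusted p = 0.2) for shSep15 and 0.48 (SE 0.15, adjusted p = 0.223) for shTR1, or 0.77 (adjusted p = 0.0859) for the latter without replicates 2 and 4, beside 0.08 (SE 0.15, adjusted p = 0.948) with both hairpins. The call ended in 12 of the 16 fits with 1 array left out (adjusted p from 0.0266 to 0.107 over all 16), and it was −1.11 (adjusted p = 0.0101) without shTR1 replicates 2 and 4. The 6 Abcf1 probe sets did not show the same pattern. At the second brightest the value was −0.50 (adjusted p = 0.163), at the next 2 it was 0.08 and 0.03 (adjusted p = 0.858 and 0.974), and at the dimmest it was 0.33 (adjusted p = 0.204). At the fifth it was 0.15 (adjusted p = 0.861). In shTR1/shSep15 cells the probe sets next to the brightest differed from control by 0.37, 0.36 and 0.54, where the brightest differed by 0.08.

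**Figure D5:**
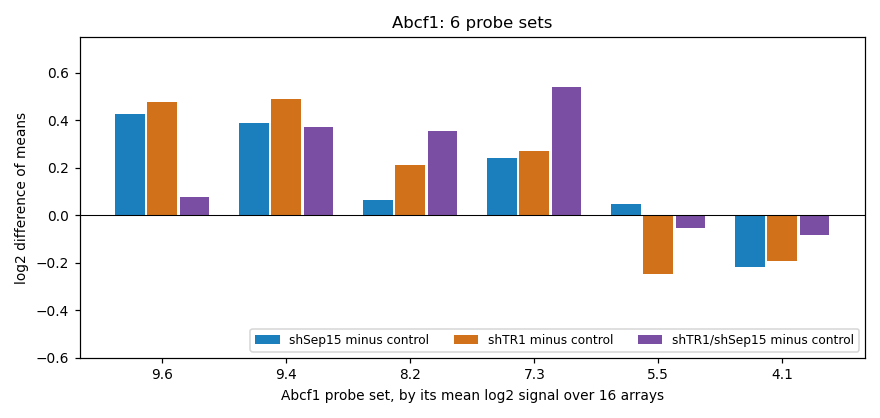
Log2 difference from control of the 6 Abcf1 probe sets, ordered by their mean log2 signal over 16 arrays (horizontal axis), in the 3 knockdown lines; bars are differences of line means with no error bar. The brightest probe set has the smallest shTR1/shSep15 bar of the first 4 (0.08, beside 0.36 to 0.54 at the next 3).

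Abce1 was at 9.92, 9.45, 9.11 and 9.90 in control cells and at 10.25, 9.91, 9.53 and 9.73 in shSep15 cells, and its differences from control of 0.26, 0.14 and 0.37 (SE 0.29 each) had adjusted p-values of 0.776, 0.85 and 0.799 from limma. Without control replicate 3 they were 0.10, −0.02 and 0.21. At the second brightest Abce1 probe set they were 0.06, −0.25 and 0.40, and at the dimmest −0.41, −0.06 and −0.74. Abcf2 was at 8.25, 8.68, 8.28 and 8.28 in shTR1/shSep15 cells and at 7.95, 7.49, 8.28 and 8.18 in control cells. The difference was 0.40 (SE 0.17, adjusted p = 0.586), or 0.24 (adjusted p = 1) without control replicate 2. In the list of 6 measured genes of ribosome recycling and termination, in which Abce1 works, 1 gene rose and 1 fell in shSep15 cells against control. Pelo, which binds stalled ribosomes, rose by 0.86 (SE 0.16, adjusted p = 0.0109), and Etf1, the termination factor, fell by 0.85 (SE 0.12, adjusted p = 0.00207). Neither the arrays labelled shTR1 nor shTR1/shSep15 cells had a call in that list against control.

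Channel regulators and others comprised Abcc8, Abcc9 and Abcg3. Their signals were dim, and their differences from control lay between −0.21 and 0.03 over the 3 lines, with 0 called. Of the ABC proteins with other symbols, 0 of 3 passed against control. Tap1, which loads peptides for class I antigen presentation, was at a mean of 6.94 in shSep15 cells and 5.87 in control cells (log2 difference 1.07, SE 0.37, adjusted p = 0.196 from limma), and its partner Tap2 at 7.07 and 6.80 (0.27, adjusted p = 0.816).

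Between the knockdown lines the members had no call in the fit of all 16 arrays. Against shTR1/shSep15 cells, 0 members were called in shSep15 cells (3.5% of all genes) and 0 in the arrays labelled shTR1 (0.11%), and between shSep15 cells and the arrays labelled shTR1 there were also 0 (0.945%). At an unadjusted p under 0.05 these comparisons had 5, 7 and 4 members, beside 15.5%, 11.3% and 9.25% of all genes, and the test of non-additivity had 8, beside 19%. Same-numbered arrays of shSep15 and shTR1/shSep15 cells correlated (r from 0.105 to 0.466), though no label ties the numbers to a shared batch. A fit of these 8 arrays with the replicate number as a block was added after seeing this. In it 6 members passed, beside 16.3% of all genes. Lower in shSep15 cells were Abcc4 (−1.14, SE 0.09, adjusted p = 0.00078), Abcd4, Abcb10 (−0.59, SE 0.13, adjusted p = 0.0273) and Abca2, a lipid transporter (−0.56, SE 0.12, adjusted p = 0.0277), and higher were Abcd3 and Abcf1 (0.35, SE 0.09, adjusted p = 0.0455). Without the block the same 8 arrays gave 5 calls, beside 10.7% of all genes. Other probe sets of these genes, as shSep15 minus shTR1/shSep15 in the fit of all 16 arrays, did not all share the direction. The dimmer Abcd3 and Abcd4 probe sets differed by 0.30 and −0.25, and the dimmer Abcb10 ones by 0.01 and −0.05. The other Abcf1 probe sets, from bright to dim, differed by 0.02, −0.29, −0.30, 0.10 and −0.14. Of the members not yet given here, Abcc3 differed between shSep15 cells and the arrays labelled shTR1 by 0.34 (SE 0.10, adjusted p = 0.229), and by 0.34 (adjusted p = 0.461) without replicates 2 and 4. Among 15 measured transcription factors known to control transporter genes, 0 passed against control. Ahr, the aryl hydrocarbon receptor, was lower in shSep15 than in shTR1/shSep15 cells by a log2 difference of −2.21 (adjusted p = 0.00582) and passed the test of non-additivity (2.12, adjusted p = 0.0475). Of 12 measured genes of sterol handling, 0 passed in any of the 7 comparisons.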

How the data were processed

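The deposited values are log2 signals per probe set of 16 arrays, which the authors made by robust multi-array averaging (RMA in the submitters' processing notes, with no version), and they were used as they stand. Of 45101 probe sets, 64 manufacturer controls were left out and 45037 tested. The annotation names 1 gene symbol for 34945, several for 932 and none for 9160. Symbols were looked up by gene number in the RefSeq table. Arrays give no depth, and their number limits the precision.

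A linear model with 1 mean per line and no replicate block was fitted to all probe sets in limma (version 3.58.1, under R 4.3.3), followed by empirical Bayes moderation (12 residual and 2.58 prior degrees of freedom). It gave 7 comparisons, namely each knockdown line against control, the knockdown lines against each other, and non-additivity (the effect of both hairpins minus the sum of the single effects). A call means a p under 0.05 after Benjamini-Hochberg adjustment over the 45037 probe sets. This differs from the study's ANOVA, which was run as an alternative together with other normalizations, other probe sets per gene, bright probe sets only, array weights, single arrays left out and the replicate number as a block. Same-numbered arrays correlated above 0.1 in all 4 pairs of shSep15 and shTR1/shSep15 arrays (r from 0.105 to 0.466, as deviations from the line means) and in 4 of the other 20 pairs. No label ties the numbers to a shared batch. The block within those lines, and separation of arrays without shTR1 replicates 2 and 4, were added after seeing the data. Members, roles and related gene lists were chosen with earlier results of these data known. Genes were named if called, if among the 6 smallest p-values in a comparison against control or the 2 smallest in another, if on a fixed list of 12, or, for levels, if among the 3 highest or lowest signals. The fit was tested on simulated data. Plots came from matplotlib 3.10.9 (Python 3.11.15).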

Additional observations from a re-analysis of the deposited data

Results flagged for a closer look

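Single arrays stood apart from the other 3 of their line in 7 of 68 groups of named genes (Dixon's test at the 95% level, which chance alone meets in about 1 group in 20). Abca3 was at 6.44 in control replicate 2, with the others between 7.86 and 7.96. In shTR1 replicate 1, Abca4 was at 4.36 (others 4.17 to 4.19), Abcb1b at 8.61 (others 9.15 to 9.24) and Abcg1 at 6.62 (others 3.90 to 4.16). The dimmer Abcg1 probe set did not show this, with shTR1 replicate 1 at 3.93. In replicate 2 of the shTR1/shSep15 line, Abcf2 was at 8.68 (others 8.25 to 8.28) and Abcg1 at 4.47 (others 4.21 to 4.25). Abcc4 was at 6.95 in shSep15 replicate 2, with the others between 7.63 and 7.75.

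For Abcf1 the test of the difference between single and joint effects passed at the brightest of its 6 probe sets (−0.82 on the log2 scale, adjusted p = 0.0493 from limma). The call ended in 12 of the 16 fits with 1 array left out. The other probe sets gave −0.50, 0.08, 0.03, 0.15 and 0.33, with 0 calls.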

How the results depend on the processing

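Of 671 alternatives run on 26 named differences, 631 kept direction and side of the threshold, 16 lost the call, 23 gained one and 1 reversed. Only Abcf1 non-additivity was called in the fit of all 16 arrays, so elsewhere keeping the side meant staying without a call. Abcf1 non-additivity passed in 8 of its 25 alternatives, and all 16 lost calls were its own. The reversal was that of Abcf1 non-additivity at the probe set of largest SD (0.0258, adjusted p = 0.974). It lost its call with median centring, a further quantile normalization, an intensity trend and the methods' adjusted ANOVA. The cause was not tested.

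Counts of members called are given with the share of all genes called by the same rule in parentheses. In shSep15 cells against control it was 1 among bright probe sets only (4.65%), 3 with the methods' unadjusted ANOVA (14.3%), 2 with array weights (7.82%) and 0 to 1 with single arrays left out, namely 1 without control replicate 1 (3.2%) or shTR1 replicate 1 (3.22%). In the arrays labelled shTR1 it was 8 with the unadjusted ANOVA (12.8%). In shTR1/shSep15 cells it was 3 with the unadjusted ANOVA (7.57%) and 0 to 1 with single arrays left out, 1 without shTR1 replicate 1 (0.0879%). Between shSep15 and shTR1/shSep15 cells it was 5 with only the arrays of those lines (10.7%), 6 with these and the replicate block (16.3%), 6 with the unadjusted ANOVA (14.3%), 4 with array weights (14.8%) and 0 to 3 with single arrays left out, 3 without control replicate 2 (6.55%) and 1 without shTR1 replicate 1 (4.07%). Between the arrays labelled shTR1 and shTR1/shSep15 cells it was 7 with the unadjusted ANOVA (10%), 1 with array weights (2.81%) and 0 to 1 with single arrays left out, 1 without shTR1 replicate 1 (0.627%). Between shSep15 cells and the arrays labelled shTR1 it was 1 with only the arrays of those lines (0.55%), 5 with the unadjusted ANOVA (8.59%), 1 with array weights (2.85%) and 0 to 1 with single arrays left out, 1 without control replicate 2 (1.84%). For non-additivity it was 0 with median centring (3.43%), quantile normalization (3.64%), an intensity trend (3.19%), the adjusted ANOVA (2.24%) and the probe set of largest SD (3.99%), 9 with the unadjusted ANOVA (17.8%), 5 with array weights (12.7%) and 0 to 2 with single arrays left out. It was 2 without control replicate 1 (4.58%), control replicate 2 (7.02%) or shTR1 replicate 1 (5.14%), and 1 without shTR1 replicate 2 (3.32%) or 4 (2.48%).

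Over the other 5 pairs of lines, replicate numbers were not treated as pairs, since in each at least 1 of 4 same-numbered pairs correlated at or below 0.1, and 4 of 16 arrays correlated best with their own number. With the replicate block over all 16 arrays the counts of calls were 0 in each of 6 comparisons and 1 for non-additivity, as without it.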
